A study of Mus musculus with 6 samples.

Results

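The set examined here holds 39 genes of fatty acid uptake and oxidation, taken by gene symbol, of the 27482 symbols in a table of RNA-seq read counts from samples labelled as mouse heart. All 39 were found, and 35 of them had enough reads to be tested. Of these 35, 8 were higher and 7 lower in the AAV9-hFNDC4 libraries than in the AAV9-CTRL libraries. That is 42.9% of them, beside 47.1% of all tested genes. With a correction for transcript length, 12 of the 35 were higher and 1 lower, beside 2791 higher and 3437 lower of all 14663 tested genes. The most changed members were the pyruvate dehydrogenase kinase Pdk4 (2.15-fold lower) and the thioesterase Acot2 (2.03-fold higher).

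Both groups come from male mice given the AAV9 adeno-associated virus, which overexpressed FNDC4, a protein released by cells that has a fibronectin type III fold, in the AAV9-hFNDC4 group (3 libraries) and was a control vector in the AAV9-CTRL group (3 libraries). By the labels, all hearts, those of the controls included, had gone through ischemia/reperfusion (I/R), a block of blood flow followed by its return, and were collected 24 h later, so no uninjured heart was compared. The promoter of the vectors, the vector dose, the age and strain of the mice and the part of the heart taken are not given with the samples. The labels do not tie the libraries to separate animals, so the p-values rest on the spread among these 6 libraries, part of which may be technical.

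As background, the heart draws much of its energy from fatty acids. Lipoprotein lipase (Lpl) frees them from circulating triglyceride, CD36 and FATP1 (Slc27a1) take them up, fatty acid binding proteins carry them, and acyl-CoA synthetases (Acsl) activate them. The carnitine shuttle (Cpt1, Slc25a20, Cpt2) moves long chains into mitochondria, where each turn of beta-oxidation runs through an acyl-CoA dehydrogenase, a hydratase, a hydroxyacyl-CoA dehydrogenase and a thiolase, with electrons leaving through the electron transfer flavoprotein (Etfa, Etfb) and its dehydrogenase (Etfdh). The nuclear receptors PPAR alpha (Ppara) and PPAR delta (Ppard) and their coactivators PGC-1 alpha and beta (Ppargc1a, Ppargc1b) switch on many of these genes.

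Total counts were 34419687 to 35149915 per library under AAV9-hFNDC4 and 32975817 to 36074046 under AAV9-CTRL, and log2 CPM correlated across genes at 0.981 to 0.990 within groups and 0.938 to 0.952 between them. CPM here are counts scaled to a library size of 1e+06 after TMM, a trimmed-mean normalization, and values after ± are SD with n = 3 libraries. The tissue label was checked against marker lists, and most markers of heart muscle, endothelium and blood cells went against it. Several stromal and mural markers did too. Over the 6 libraries, Dcn, Lum, Tcf21 and Postn of the stromal list had 9, 1, 1 and 25 counts. Acta2, Myh11 and Rgs5 of the mural list had 49, 60 and 16. For cardiomyocytes, 3 of 18 markers had no counts at all (Nkx2-5, Pln, Myl7). At 1 CPM or more in 3 or more libraries were 5 (Atp2a2, Tnnt2, Gata4, Ttn and Myh7). Of 7 tested, 1 was higher (Gata4) and 3 lower (Tnnt2, Ryr2 and Atp2a2). Gata4 stood at 11.2 to 13.9 CPM under AAV9-hFNDC4 and 6.88 to 7.43 CPM under AAV9-CTRL. Tnnt2 stood at 37.5 to 38.9 CPM under AAV9-hFNDC4 and 49.9 to 53.3 CPM under AAV9-CTRL. Myh6, the main adult cardiac myosin, lay at 0.134 to 0.380 CPM under AAV9-hFNDC4 and 0.116 to 0.574 CPM under AAV9-CTRL. Actc1 and Tnni3, other muscle fibre genes, were at most 0.269 and 0.347 CPM in any library, Cdh5 of endothelium at most 0.0898 CPM and Ptprc of blood cells at most 0.163 CPM. The libraries are called by their labels in what follows. The summed level of the cardiomyocyte list was 409 to 482 CPM under AAV9-hFNDC4 and 485 to 748 CPM under AAV9-CTRL, most of it Atp2a2. Of 11 fibroblast and stromal markers, 7 reached 1 CPM, and their sum was 11472 to 12130.3 CPM under AAV9-hFNDC4 and 7141 to 8409 CPM under AAV9-CTRL, with Fn1 alone at 4855 to 5824 CPM under AAV9-hFNDC4 and 1808 to 2016 CPM under AAV9-CTRL. Of 7 tested, 4 were higher and 1 (Dpt) lower, while Vim overlapped at 3064 to 3439 CPM under AAV9-hFNDC4 and 3334 to 4365 CPM under AAV9-CTRL. Mural markers summed to 531 to 595 CPM under AAV9-hFNDC4 and 298 to 359.7 CPM under AAV9-CTRL, nearly all of it Pdgfrb and Cspg4, which were higher, whereas Tagln and Notch3, both under 2 CPM, were lower. Endothelial markers summed to 203 to 225 CPM under AAV9-hFNDC4 and 231 to 249 CPM under AAV9-CTRL, nearly all of it Eng. Leukocyte and macrophage markers summed to 25.6 to 29.9 CPM under AAV9-hFNDC4 and 42.7 to 51.3 CPM under AAV9-CTRL. Of 6 tested, 0 were higher and 2 lower (Cd68 and Itgam). Cd68 stood at 10.9 to 13.3 CPM under AAV9-hFNDC4 and 24.7 to 30.5 CPM under AAV9-CTRL. Neutrophil markers summed to 0 CPM under AAV9-hFNDC4 and at most 0.389 CPM under AAV9-CTRL. The vector's own gene was not analysed here. The part of these marker differences in the results that follow was not tested. In bulk RNA, fewer cells of a type and less RNA per cell cannot be told apart.

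Several members typical of heart muscle were at or near 0 counts, and other forms of the same proteins carried the reads. Levels are compared between genes as RPKM, the CPM divided by the exon length in kb. Cpt1a, the form of carnitine palmitoyltransferase 1 best known from liver, stood at 48.3 RPKM under AAV9-hFNDC4 and 39.3 RPKM under AAV9-CTRL, and Cpt1b, the muscle form, at 0.185 RPKM under AAV9-hFNDC4 and 0.216 RPKM under AAV9-CTRL. Cpt1a made up 87.9% ± 0.550 of the summed level per kb of the 3 CPT1 genes under AAV9-hFNDC4 and 83.3% ± 2.75 under AAV9-CTRL. Cpt1b shares 94.8% of its exon bases with an annotated gene that overlaps it on the same strand (Gm44502), so its count is uncertain.

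Fabp3, the heart fatty acid binding protein, had 0 counts under AAV9-hFNDC4 and 6 over the 3 AAV9-CTRL libraries, of which 5 were in AAV9-CTRL replicate 2. A group total of 0 allows up to 3 counts, or 0.0272 CPM under AAV9-hFNDC4 (counting error only). Fabp4, the form typical of adipocytes, macrophages and capillary endothelium, was among the most abundant members per kb, at 143 RPKM under AAV9-hFNDC4 and 231 RPKM under AAV9-CTRL. Ppara had 0 counts under AAV9-hFNDC4 and 2 under AAV9-CTRL, against 4424 counts of Ppard under AAV9-hFNDC4 and 2902 under AAV9-CTRL. Ppard stood at 12.2 RPKM under AAV9-hFNDC4 and 8.90 RPKM under AAV9-CTRL. Pparg, another PPAR gene that is outside the set, stood above it, at 22.6 RPKM under AAV9-hFNDC4 and 28.6 RPKM under AAV9-CTRL. Ucp3, the uncoupling protein of muscle, had 18 counts under AAV9-hFNDC4 and 29 under AAV9-CTRL, against 12137 counts of Ucp2, its widely expressed relative, under AAV9-hFNDC4 and 12167 under AAV9-CTRL. Decr1, the mitochondrial reductase that oxidation of polyunsaturated chains needs, had 0 counts under AAV9-hFNDC4 and 1 under AAV9-CTRL. Fabp3, Ppara, Ucp3 and Decr1 are the 4 members that were not tested. Of the ACSL genes in the set, Acsl1 had the highest level per kb at 14.1 RPKM under AAV9-hFNDC4 and 14.1 RPKM under AAV9-CTRL. Acsl3 followed at 8.02 RPKM under AAV9-hFNDC4 and 8.52 RPKM under AAV9-CTRL, then Acsl4 at 7.39 RPKM under AAV9-hFNDC4 and 4.80 RPKM under AAV9-CTRL. Acsl1 lay above Acsl3 and Acsl4 in every library, whereas the ranges of Acsl3 and Acsl4 overlapped under AAV9-hFNDC4. Acsl5, which is outside the set, stood above Acsl1, at 23.8 RPKM under AAV9-hFNDC4 and 29.8 RPKM under AAV9-CTRL.

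**Figure D1:**
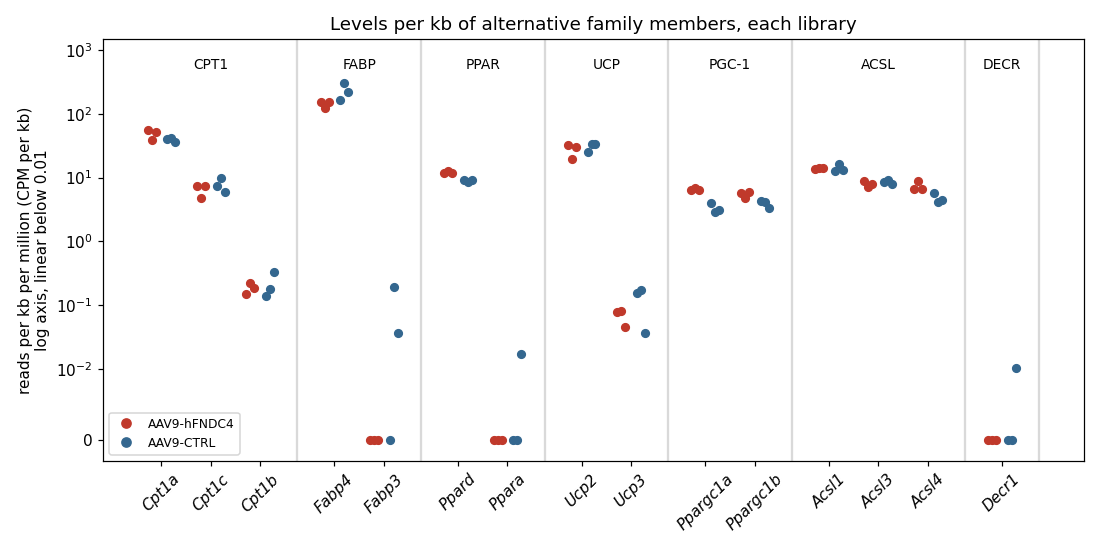
Level per kb of exon of alternative members of the same families, in each library (AAV9-hFNDC4 left and red, AAV9-CTRL right and blue; log axis, linear below 0.01). Cpt1b, Fabp3, Ppara, Ucp3 and Decr1 lie below 1 RPKM in all 6 libraries, while Cpt1a, Fabp4, Ppard and Ucp2 lie above 8. Genes of these families outside the set, such as Pparg and Acsl5, are not shown.

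The comparison asked how these genes differed between the libraries labelled as injured hearts with added FNDC4 and those labelled as injured hearts without it. Of 35 tested members, 8 were higher, 7 lower and 20 did not pass (edgeR quasi-likelihood test, Benjamini-Hochberg adjusted over 14663 genes, threshold 0.05). That is 42.9% of the tested members, beside 47.1% of all tested genes, of which 22.1% were higher and 25.0% lower, so the share of members called was near that of all genes. The median log2 fold change was 0.00 over the members and 0.01 over all genes. Member fold changes ran from -1.11 to 1.02, and the groups did not overlap in 19 of 35 members (9 higher, 10 lower), beside 56.6% of all genes (27.1% higher, 29.5% lower). Receptors and coactivators were higher in 3 of 3 tested members, namely the receptor Ppard and the coactivators Ppargc1a and Ppargc1b. Ppara was not tested, and partners of these genes outside the set went both ways, as given below. The 16 tested enzymes and electron carriers of the beta-oxidation spiral included 0 that were higher and 4 that were lower (Acads, Etfb, Acaa2 and Eci2). Beside the 22.1% higher and 25.0% lower of all tested genes, the share that was lower was near that of all genes. Uptake, activation and the carnitine shuttle went both ways, with 4 higher and 2 lower of 13. With a correction for transcript length, 6 of the 7 lower calls were lost, all but Pdk4, with the values given below. Those lost included all 4 of the spiral, while Hadh, Echs1 and Etfa of the spiral and the uptake gene Slc27a1 then passed as higher.

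**Figure D2:**
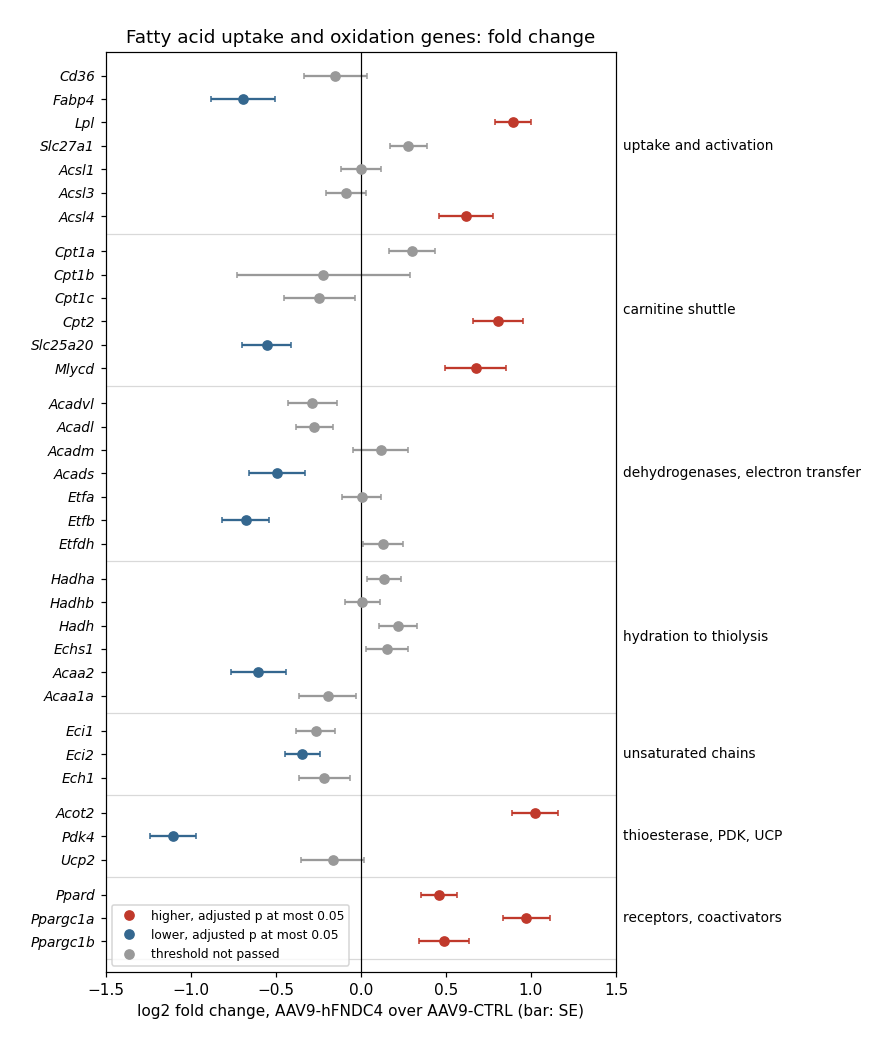
Log2 fold change of the 35 tested members, AAV9-hFNDC4 over AAV9-CTRL, with SE, grouped by role. Points right of 0 are higher in AAV9-hFNDC4; red and blue mark the 8 higher and 7 lower members past an adjusted p of 0.05, and the 3 receptor and coactivator genes are all red.

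Among the regulators, Ppargc1a, the coactivator best known for driving mitochondrial gene expression (GRCm38.p6, chromosome 5, 51454249 to 52115853), stood at 41.0, 44.6 and 40.9 CPM in the AAV9-hFNDC4 libraries, against 25.8, 18.8 and 19.8 CPM in the AAV9-CTRL libraries. Every AAV9-hFNDC4 library lay above every AAV9-CTRL library, a 1.96-fold difference (log2 fold change 0.97, SE 0.14, adjusted p = 0.000196). Its relative Ppargc1b stood at 21.6, 18.0 and 22.5 CPM in the AAV9-hFNDC4 libraries, against 16.2, 15.5 and 12.5 CPM in the AAV9-CTRL libraries, again without overlap (log2 fold change 0.49, SE 0.15, adjusted p = 0.0182). The call of Ppargc1b did not survive leaving out replicate 1 of AAV9-hFNDC4 (adjusted p = 0.0622), its replicate 3 (0.0823) or replicate 3 of AAV9-CTRL (0.0854). Ppard, a widely expressed fatty acid receptor (chromosome 17, 28232754 to 28301469), stood at 39.1, 42.0 and 39.2 CPM in the AAV9-hFNDC4 libraries, against 29.5, 27.7 and 30.3 CPM in the AAV9-CTRL libraries. Its groups were narrow and did not overlap, with 40.1 ± 1.67 CPM under AAV9-hFNDC4 and 29.2 ± 1.34 CPM under AAV9-CTRL (log2 fold change 0.46, SE 0.11, adjusted p = 0.00443). All 3 regulators stayed higher with the correction for transcript length described below.

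In uptake and activation, Lpl (chromosome 8, 68880555 to 68906932) was the member with the most reads, at 888, 1066 and 968 CPM in the AAV9-hFNDC4 libraries, against 504, 523 and 544 CPM in the AAV9-CTRL libraries. The lowest AAV9-hFNDC4 library lay above the highest AAV9-CTRL library, and Lpl was 1.86-fold higher (log2 fold change 0.90, SE 0.11, adjusted p = 7.95e-05). Acsl4, a synthetase that prefers arachidonic acid (chromosome X, 142317993 to 142390802), stood at 34.9, 47.8 and 35.4 CPM in the AAV9-hFNDC4 libraries, against 30.5, 22.3 and 24.0 CPM in the AAV9-CTRL libraries. It was higher (log2 fold change 0.62, SE 0.16, adjusted p = 0.00722), with AAV9-hFNDC4 replicate 2 the highest library. Fabp4 (chromosome 3, 10204342 to 10208616) stood at 135, 111 and 137 CPM in the AAV9-hFNDC4 libraries, against 148, 275 and 199 CPM in the AAV9-CTRL libraries. It was lower without overlap, at 128 ± 14.5 CPM under AAV9-hFNDC4 and 207 ± 64.2 CPM under AAV9-CTRL (log2 fold change -0.69, SE 0.19, adjusted p = 0.0107), and the wide spread of its controls came from AAV9-CTRL replicate 2. Of 12 adipocyte markers, 4 reached 1 CPM in at least 3 libraries (Fabp4 itself, Pparg, Lipe and, in the AAV9-CTRL libraries, Pck1). The sum of the list without Fabp4 was 58.7 to 68.1 CPM under AAV9-hFNDC4 and 77.0 to 82.2 CPM under AAV9-CTRL. Most of it was Pparg, at 52.6 to 55.2 CPM under AAV9-hFNDC4 and 67.3 to 68.5 CPM under AAV9-CTRL. The adipocyte hormone Adipoq had 0, 0 and 0.0272 CPM in the AAV9-hFNDC4 libraries, against 1.21, 0.478 and 0.718 CPM in the AAV9-CTRL libraries. Lipe, the hormone-sensitive lipase, overlapped at 12.4, 5.29 and 11.7 CPM in the AAV9-hFNDC4 libraries, against 7.49, 8.35 and 5.62 CPM in the AAV9-CTRL libraries. Plin1, the droplet coat of fat cells, also overlapped, at 0.534, 0.333 and 0.407 CPM in the AAV9-hFNDC4 libraries, against 0.0868, 0.510 and 0.0598 CPM in the AAV9-CTRL libraries. Of 8 tested markers of the list, 0 were higher and 4 lower (Fabp4, Pparg, Adipoq and Pck1), beside 22.1% higher and 25.0% lower of all tested genes. Lep had 1 count and Ucp1 none in all. The part of these markers in the lower Fabp4 was not tested.

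The other 4 uptake and activation genes did not pass. Slc27a1 stood at 326, 390.5 and 357 CPM in the AAV9-hFNDC4 libraries, against 272, 320.0 and 292 CPM in the AAV9-CTRL libraries, without overlap but just short of the threshold (log2 fold change 0.28, SE 0.11, adjusted p = 0.0533), and it passed in 8 of 16 alternatives. Cd36, the main fatty acid translocase of muscle and fat, stood at 19.9, 15.4 and 16.8 CPM in the AAV9-hFNDC4 libraries, against 16.0, 25.3 and 16.6 CPM in the AAV9-CTRL libraries (log2 fold change -0.15, SE 0.19, adjusted p = 0.537). It overlapped between the groups, and AAV9-CTRL replicate 2 was its highest library, as for Fabp4. Acsl1 and Acsl3 differed by 0.00 (SE 0.12) and -0.09 (SE 0.12) on the log2 scale and overlapped.

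Within the carnitine shuttle, genes of successive steps went opposite ways. Cpt2, the inner membrane transferase that hands the acyl group back to CoA (chromosome 4, 107903982 to 107923589), stood at 45.4, 36.0 and 47.9 CPM in the AAV9-hFNDC4 libraries, against 23.0, 29.0 and 22.0 CPM in the AAV9-CTRL libraries. It was 1.75-fold higher without overlap (log2 fold change 0.80, SE 0.15, adjusted p = 0.000984). Slc25a20, the carrier that exchanges acylcarnitine for carnitine (chromosome 9, 108662136 to 108684642), stood at 33.7, 23.6 and 28.8 CPM in the AAV9-hFNDC4 libraries, against 37.4, 43.8 and 45.3 CPM in the AAV9-CTRL libraries. It was 1.47-fold lower, also without overlap (log2 fold change -0.55, SE 0.14, adjusted p = 0.00774). The ratio of Cpt2 to Slc25a20 per kb was therefore 1.01, 1.15 and 1.25 in the AAV9-hFNDC4 libraries, against 0.462, 0.498 and 0.366 in the AAV9-CTRL libraries. Mlycd, malonyl-CoA decarboxylase, which removes the inhibitor of CPT1 (chromosome 8, 119394852 to 119421838), stood at 15.1, 11.7 and 15.0 CPM in the AAV9-hFNDC4 libraries, against 8.10, 10.5 and 7.57 CPM in the AAV9-CTRL libraries. It was higher (log2 fold change 0.68, SE 0.18, adjusted p = 0.00927) and its groups did not overlap.

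Cpt1a stood at 238, 166 and 221 CPM in the AAV9-hFNDC4 libraries, against 174, 178 and 157 CPM in the AAV9-CTRL libraries and did not pass (log2 fold change 0.30, SE 0.13, adjusted p = 0.0829), and AAV9-hFNDC4 replicate 2 lay within the range of the controls. Without that library its log2 fold change was 0.44 and it passed (adjusted p = 0.00859). Cpt1c, a form known from neurons, and Cpt1b differed by -0.24 (SE 0.21) and -0.22 (SE 0.51) and did not pass.

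**Figure D3:**
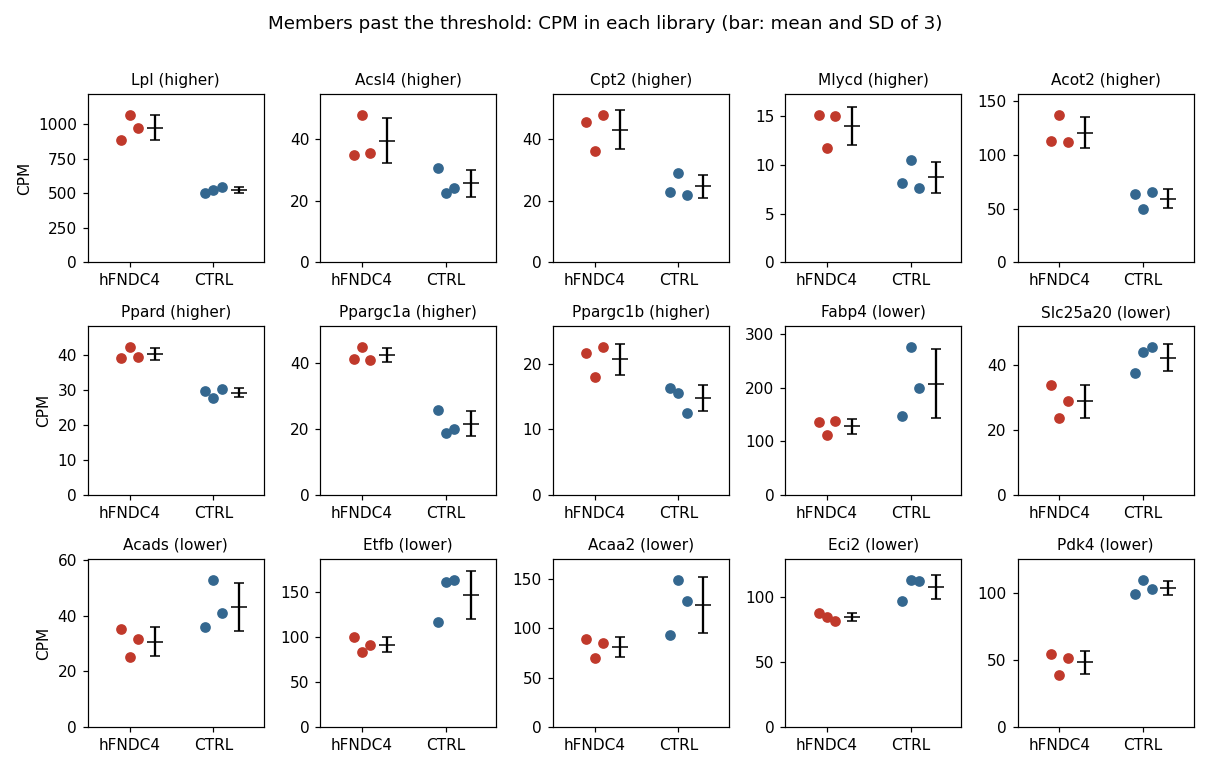
CPM of the 15 members past the threshold in each library, AAV9-hFNDC4 left and AAV9-CTRL right, with mean and SD of 3 at the side; each vertical axis starts at 0. In all 15 panels the groups do not overlap, with Pdk4, Acot2, Lpl and Ppargc1a set furthest apart and Acads and Acaa2 closest to touching.

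Of the acyl-CoA dehydrogenases, which take chains of falling length, 1 of 4 was called. Acads, for short chains (chromosome 5, 115110299 to 115119346), stood at 35.3, 25.1 and 31.7 CPM in the AAV9-hFNDC4 libraries, against 36.1, 52.8 and 40.8 CPM in the AAV9-CTRL libraries, without overlap (log2 fold change -0.49, SE 0.16, adjusted p = 0.027). Its call was lost without AAV9-hFNDC4 replicate 2 or 3, or AAV9-CTRL replicate 2 or 3, with adjusted p = 0.0969, 0.059, 0.0883 and 0.0572, and with upper-quartile normalization. Acadl, for long chains, stood at 202, 165 and 178 CPM in the AAV9-hFNDC4 libraries, against 203, 235 and 220.4 CPM in the AAV9-CTRL libraries and Acadvl, for very long chains, at 61.5, 43.4 and 60.7 CPM in the AAV9-hFNDC4 libraries, against 62.6, 74.9 and 64.4 CPM in the AAV9-CTRL libraries. Both had every AAV9-hFNDC4 library below every AAV9-CTRL library, by a small margin, and neither passed (adjusted p = 0.0603 and 0.123). Acadvl shares 45% of its exon bases with Dvl2 on the other strand, and whether counting used strand is not given. Acadm, for medium chains, differed by 0.12 (SE 0.16) and overlapped, with a pass without AAV9-CTRL replicate 2 at 0.35 (adjusted p = 0.0231).

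The electron transfer flavoprotein is a dimer of one Etfa and one Etfb chain, and of their RNAs Etfb was called and Etfa was not. Etfb (chromosome 7, 43444072 to 43457800) stood at 99.9, 83.9 and 91.6 CPM in the AAV9-hFNDC4 libraries, against 117, 161 and 163 CPM in the AAV9-CTRL libraries. It was 1.60-fold lower (log2 fold change -0.68, SE 0.14, adjusted p = 0.00187), while Etfa stood at 120.1, 117 and 119.9 CPM in the AAV9-hFNDC4 libraries, against 100.2, 132 and 124 CPM in the AAV9-CTRL libraries and overlapped (log2 fold change 0.01, SE 0.12, adjusted p = 0.969). The ratio of Etfb to Etfa per kb was 1.30, 1.12 and 1.19 in the AAV9-hFNDC4 libraries, against 1.81, 1.90 and 2.06 in the AAV9-CTRL libraries. Etfb shares 69.1% of its exon bases with a gene annotated on the same strand (Gm45233), so the split of its reads is uncertain, and at 0.893 kb it is shorter than Etfa at 1.39 kb. Etfdh, which passes the electrons on to ubiquinone, differed by 0.13 (SE 0.12) and did not pass.

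For the subunits of the mitochondrial trifunctional protein no change was detected. Hadha, its hydratase and dehydrogenase subunit, averaged 247 ± 16.2 CPM under AAV9-hFNDC4 and 224 ± 12.0 CPM under AAV9-CTRL, and Hadhb, its thiolase subunit, 76.3 ± 4.81 CPM under AAV9-hFNDC4 and 75.9 ± 3.68 CPM under AAV9-CTRL. Their log2 fold changes were 0.14 (SE 0.10) and 0.01 (SE 0.10), with adjusted p = 0.281 and 0.961. Hadh, for shorter chains, and Echs1, the short-chain hydratase, differed by 0.22 (SE 0.11) and 0.15 (SE 0.12) and did not pass. Acaa2, the mitochondrial thiolase, stood at 89.4, 69.7 and 85.0 CPM in the AAV9-hFNDC4 libraries, against 93.7, 149 and 128 CPM in the AAV9-CTRL libraries. It was 1.52-fold lower without overlap (log2 fold change -0.60, SE 0.16, adjusted p = 0.00912). Acaa1a, the peroxisomal thiolase, differed by -0.20 (SE 0.17) and overlapped, and its near copy Acaa1b makes the split of its reads uncertain.

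The 3 tested enzymes for double bonds in unsaturated chains all had negative values in the edgeR test, and 1 of 3 passed. Eci2, an enoyl-CoA isomerase (chromosome 13, 34977748 to 35027115), stood at 87.6, 84.8 and 82.2 CPM in the AAV9-hFNDC4 libraries, against 97.3, 113 and 113 CPM in the AAV9-CTRL libraries and was 1.27-fold lower (log2 fold change -0.34, SE 0.10, adjusted p = 0.0172). Eci2 shares 10.8% of its exon bases with Gm16984 on the other strand. The call was lost without replicate 3 of AAV9-hFNDC4 (adjusted p = 0.0838) or replicate 3 of AAV9-CTRL (0.0729). Eci1, its relative, differed by -0.26 (SE 0.12) with groups that did not overlap, and Ech1, the dienoyl isomerase, by -0.21 (SE 0.15) with groups that did. Over the alternatives described below, the log2 fold change of Eci1 ran from -0.32 to 0.09 and that of Ech1 from -0.33 to 0.15. The sign of both thus depended on the processing.

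The largest differences lay beside the spiral. Pdk4, the kinase that shuts pyruvate dehydrogenase and so favours fatty acids over glucose (chromosome 6, 5483351 to 5496278), stood at 54.9, 38.6 and 51.3 CPM in the AAV9-hFNDC4 libraries, against 99.3, 109.6 and 103 CPM in the AAV9-CTRL libraries. The groups lay furthest apart of all called members relative to their level, and Pdk4 was 2.15-fold lower (log2 fold change -1.11, SE 0.13, adjusted p = 8.74e-05). Pdk1, another kinase of the same family, taken up after its values had been seen, stood at 88.5, 162 and 110.2 CPM in the AAV9-hFNDC4 libraries, against 40.4, 76.2 and 44.8 CPM in the AAV9-CTRL libraries. It was 2.23-fold higher without overlap (log2 fold change 1.16, SE 0.27, adjusted p = 0.00631), while Pdk2 and Pdk3 had log2 fold changes of 0.45 (SE 0.25) and 0.12 (SE 0.14) and did not pass. Acot2, a mitochondrial thioesterase that frees fatty acids from CoA (chromosome 12, 83987861 to 83993877), stood at 113, 137 and 112 CPM in the AAV9-hFNDC4 libraries, against 63.8, 49.5 and 65.3 CPM in the AAV9-CTRL libraries. Every AAV9-hFNDC4 library lay far above the controls, a 2.03-fold difference (log2 fold change 1.02, SE 0.13, adjusted p = 0.000133). Acot2 has a close paralog in Acot1, so their split of reads is uncertain. Acot1 stood at 15.2, 7.23 and 12.5 CPM in the AAV9-hFNDC4 libraries, against 7.96, 12.4 and 9.45 CPM in the AAV9-CTRL libraries and did not pass (adjusted p = 0.485). Ucp2, a mitochondrial carrier, differed by -0.16 (SE 0.18) and overlapped, with AAV9-hFNDC4 replicate 2 its lowest library.

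**Figure D4:**
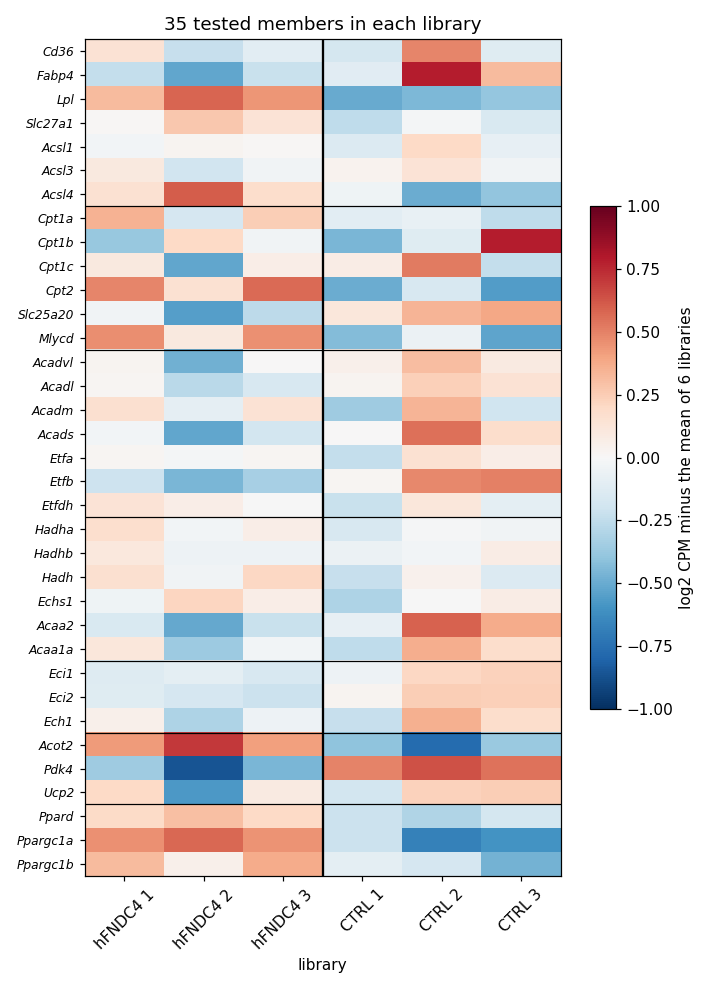
Log2 CPM of the 35 tested members in each library, minus the gene's mean over the 6 libraries (red above, blue below; AAV9-hFNDC4 left of the black line). Values run from -0.865 to 0.786, and within groups AAV9-hFNDC4 replicate 2 stands out in Acads and Ucp2 and AAV9-CTRL replicate 2 in Acads and Fabp4.

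Transcript length moved with the fold changes. Over the 13392 tested genes with a length, 91.3% of those tested, the median log2 fold change was -0.49 in the shortest 10% (median exon length 0.881 kb) and 0.46 in the longest 10% (median 8.58 kb), with a Spearman rho of 0.353 across genes, which are not independent replicates. Across the 35 tested members the rho was 0.535. After a per-library correction for length, 12 of 35 members were higher and 1 lower, beside 2791 and 3437 of all 14663 tested genes. Of the 15 calls, 9 remained. The 6 that were lost were all lower members, namely Fabp4 at -0.22 (adjusted p = 0.228), Etfb at -0.22 (adjusted p = 0.115), Acaa2 at -0.30 (adjusted p = 0.0881), Slc25a20 at -0.33 (adjusted p = 0.0609), Acads at -0.28 (adjusted p = 0.137) and Eci2 at -0.11 (adjusted p = 0.324). Fabp4 and Etfb, at 0.896 and 0.893 kb, are among the shortest members. Pdk4 stayed lower at -1.13 (adjusted p = 0.000127), and all 8 higher members stayed higher, with Ppargc1a at 0.67 (adjusted p = 0.000892) and Acot2 at 1.16 (adjusted p = 0.000178). Of the members that did not pass before, Hadh, Echs1, Etfa and Slc27a1 passed as higher with it, at 0.44 (adjusted p = 0.00359), 0.44 (adjusted p = 0.00727), 0.34 (adjusted p = 0.0108) and 0.33 (adjusted p = 0.0185). Whether the length trend is technical was not tested.

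**Figure D5:**
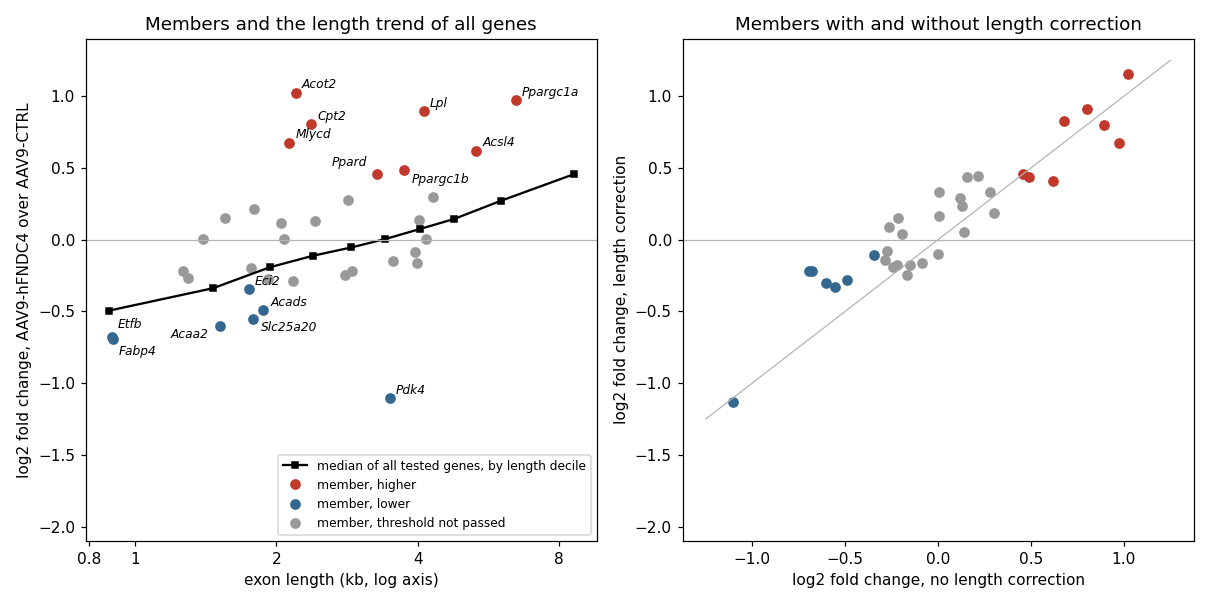
Left, log2 fold change of each tested member against exon length in kb (log axis), with the median of all tested genes in length deciles as black squares. Right, member values with the length correction against those without it (grey line: equal values); the 6 lower members other than Pdk4 move towards 0, and Pdk4 stays at -1.13.

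Ratios between genes of linked steps, which library scaling cannot shift, were compared over libraries. Of 5 ratios, chosen after the values had been seen, none can pass 0.05, since 3 against 3 libraries allow no exact permutation p below 0.1. The difference in log2 ratio was 1.37 for Cpt2 to Slc25a20, -0.68 for Etfb to Etfa, 0.52 for Cpt2 to Cpt1a, 0.50 for Ppargc1a to Ppargc1b and 0.13 for Hadha to Hadhb, each with groups that did not overlap (exact two-sided permutation test, p = 0.1 each, Benjamini-Hochberg adjusted p = 0.1).

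The 250 bases before a listed start of 7 members are printed, to set the sequences of genes that the results turn on side by side, from RefSeq on GRCm38.p6, read 5′ to 3′ on the gene's strand and ending at the base before that start. The listed starts of Ppargc1a and Cpt1a lie inside the annotated genes, so their stretches do too. They are 3 higher members (Ppargc1a, Acot2, Cpt2), 2 lower members (Slc25a20, Pdk4), and Cpt1a and Hadhb, which did not pass. Hadhb starts 273 bases from Hadha, which runs the other way, so its stretch lies between both genes. Capitals mark AGGTCA, the repeat unit of the element that PPAR and its partner RXR bind, CCAAT, the box of the factor NF-Y, and GGGCGG, the GC box of Sp1, on either strand (a match on the other strand shows as its reverse complement).
Ppargc1a, chr5:51567726-51567975, minus strand: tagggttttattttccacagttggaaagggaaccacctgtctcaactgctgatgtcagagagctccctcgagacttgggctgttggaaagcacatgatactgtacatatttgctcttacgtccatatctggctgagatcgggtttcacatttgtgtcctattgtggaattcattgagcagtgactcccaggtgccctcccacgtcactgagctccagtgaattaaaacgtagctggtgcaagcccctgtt
Acot2, chr12:83987611-83987860, plus strand: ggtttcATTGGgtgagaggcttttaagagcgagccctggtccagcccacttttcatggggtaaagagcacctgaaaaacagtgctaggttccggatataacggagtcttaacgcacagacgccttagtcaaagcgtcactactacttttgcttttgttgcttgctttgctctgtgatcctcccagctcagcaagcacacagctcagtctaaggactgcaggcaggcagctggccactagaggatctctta
Cpt2, chr4:107923590-107923839, minus strand: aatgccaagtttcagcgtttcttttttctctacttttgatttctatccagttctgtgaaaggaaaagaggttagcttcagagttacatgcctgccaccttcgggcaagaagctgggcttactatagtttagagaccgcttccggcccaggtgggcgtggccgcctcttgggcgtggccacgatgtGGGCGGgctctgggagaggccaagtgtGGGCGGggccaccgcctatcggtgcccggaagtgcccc
Slc25a20, chr9:108661886-108662135, plus strand: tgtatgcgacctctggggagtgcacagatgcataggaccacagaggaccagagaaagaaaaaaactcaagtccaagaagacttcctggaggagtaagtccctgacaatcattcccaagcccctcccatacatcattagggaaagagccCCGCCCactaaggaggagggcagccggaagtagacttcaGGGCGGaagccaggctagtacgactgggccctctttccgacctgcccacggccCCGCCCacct
Pdk4, chr6:5496279-5496528, minus strand: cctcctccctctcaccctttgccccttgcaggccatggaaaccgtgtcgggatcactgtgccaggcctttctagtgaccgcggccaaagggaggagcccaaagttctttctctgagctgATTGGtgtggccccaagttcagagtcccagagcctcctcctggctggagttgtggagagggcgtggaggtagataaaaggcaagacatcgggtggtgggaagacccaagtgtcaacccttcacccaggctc
Cpt1a, chr19:3323051-3323300, plus strand: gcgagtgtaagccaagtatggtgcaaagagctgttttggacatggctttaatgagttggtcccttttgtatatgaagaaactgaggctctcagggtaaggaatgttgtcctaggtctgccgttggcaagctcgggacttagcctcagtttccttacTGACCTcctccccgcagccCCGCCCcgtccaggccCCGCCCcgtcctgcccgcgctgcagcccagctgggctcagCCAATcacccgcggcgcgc
Hadhb, chr5:30155003-30155252, plus strand: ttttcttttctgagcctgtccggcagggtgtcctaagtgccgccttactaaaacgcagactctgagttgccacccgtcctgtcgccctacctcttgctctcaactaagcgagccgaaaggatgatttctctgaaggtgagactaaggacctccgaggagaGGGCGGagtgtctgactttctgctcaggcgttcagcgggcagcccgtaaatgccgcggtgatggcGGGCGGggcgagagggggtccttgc
The stretch of Ppargc1a holds no capitals. Those of Acot2 and Pdk4, which changed in opposite directions, each hold 1 CCAAT box and no GC box. Those of Cpt2 and Slc25a20, also opposite, hold 2 and 3 GC boxes.

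Promoter entries matched 33 of the 39 members, and Fabp4, Lpl, Cpt1b, Acaa2, Decr1 and Ppargc1b had none. AGGTCA, on either strand in the 250 bases before a start, was found in 7 of 33 members (21.2%), namely Cd36, Cpt1a, Cpt1c, Acadvl, Acadm, Echs1 and Ucp3. That is beside 15.8% of 27025 genes with an entry and 13.6% of tested genes with one. AGGTCA was found in 0 of 6 higher and 0 of 5 lower members. The form with 2 copies, AGGTCANAGGTCA, and the form of the ERR receptors, TCAAGGTCA, both of which contain AGGTCA, were found in 0 of 33 members, beside 0.0407% and 0.422% of all genes. CCAAT was found in 3 of 6 higher, 3 of 5 lower and 10 of 22 uncalled members, beside 37.5% of all genes and 40.5% of tested genes. GGGCGG was found in 3 of 6 higher, 3 of 5 lower and 16 of 22 uncalled members, beside 35.4% of all genes and 58.6% of tested genes.

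Around these members, 108 genes of neighbouring steps were read from 6 lists. Of 95 tested, 30 were higher and 18 lower, 50.5% together, beside 47.1% of all genes. Partners of PPAR and PGC-1 were called in 13 of 16, with 9 higher and 4 lower. Ncoa1, a coactivator of nuclear receptors, stood at 108, 133 and 121 CPM in the AAV9-hFNDC4 libraries, against 42.6, 36.9 and 40.2 CPM in the AAV9-CTRL libraries (log2 fold change 1.60, SE 0.12, adjusted p = 6.15e-06). Klf15, a factor that drives lipid use in the heart, was higher by 1.25 (SE 0.11), the corepressor Ncor1 by 0.80 (SE 0.12), and the deacetylase Sirt1 was lower with -0.98 (SE 0.12). With the length correction Ncor1 stood at 0.24 (adjusted p = 0.0346).

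Of 16 tested genes of the lipid droplet and of lipolysis, 4 were higher and 2 lower. Vldlr, a receptor that works with Lpl in triglyceride uptake, stood at 149.6, 232 and 169.9 CPM in the AAV9-hFNDC4 libraries, against 66.4, 66.2 and 69.6 CPM in the AAV9-CTRL libraries (log2 fold change 1.45, SE 0.15, adjusted p = 3.36e-05). Plin2, the main droplet coat protein outside fat, was lower at 554 ± 45.9 CPM under AAV9-hFNDC4 and 921 ± 40.6 CPM under AAV9-CTRL (log2 fold change -0.73, SE 0.11, adjusted p = 0.000235). G0s2, an inhibitor of the lipase ATGL, was higher by 1.04 (SE 0.21), and the coat protein Plin4 by 0.69 (SE 0.14). Of 20 further uptake, activation and thioesterase genes 5 were higher and 7 lower. Slc27a6, a fatty acid transporter of the heart, stood at 17.2, 30.5 and 17.4 CPM in the AAV9-hFNDC4 libraries, against 4.80, 3.89 and 4.79 CPM in the AAV9-CTRL libraries and was 4.83-fold higher (log2 fold change 2.27, SE 0.23, adjusted p = 3.59e-05). Acadsb, for branched short chains, was higher by 0.90 (SE 0.12), while the thioesterase Acot7 was lower with -1.03 (SE 0.10) and Fabp5 with -0.96 (SE 0.13).

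Of 20 peroxisomal genes 5 were higher and 1 lower. Acox2, an oxidase of branched chains, stood at 62.9, 157 and 70.9 CPM in the AAV9-hFNDC4 libraries, against 25.8, 17.0 and 33.6 CPM in the AAV9-CTRL libraries and was higher (log2 fold change 1.93, SE 0.36, adjusted p = 0.00192), with AAV9-hFNDC4 replicate 2 more than any other library. Its call was lost without the low-count filter, and its log2 fold change without AAV9-hFNDC4 replicate 2 was 1.40. Decr2, the peroxisomal relative of Decr1, was higher by 0.94 (SE 0.15) and Pex11a, which acts in peroxisome division, by 0.76 (SE 0.10), while the import receptor Pex5 was lower with -0.58 (SE 0.11). In control by malonyl-CoA, AMPK and pyruvate dehydrogenase, 6 of 19 were higher and 4 lower. Acacb, which makes the malonyl-CoA that Mlycd removes, stood at 84.6, 64.7 and 92.8 CPM in the AAV9-hFNDC4 libraries, against 37.3, 48.1 and 25.6 CPM in the AAV9-CTRL libraries and was higher (log2 fold change 1.13, SE 0.21, adjusted p = 0.00117). The AMPK subunit Prkab1 was lower with -0.68 (SE 0.11), the pyruvate carrier Mpc2 with -0.77 (SE 0.13) and Pdhb, a pyruvate dehydrogenase subunit, with -0.45 (SE 0.11), of which Mpc2 stood at -0.35 (adjusted p = 0.0196) with the length correction and Pdhb was not called with it, at -0.16 (adjusted p = 0.27). Of 4 tested ketone body genes, Oxct1, the enzyme of ketone use, was higher by 0.40 (SE 0.10). Acat1 and Slc16a1 had log2 fold changes of -0.14 (SE 0.10) and 0.05 (SE 0.17) and did not pass.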

How the data were processed

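The authors deposited raw read counts per gene symbol, 1 column for each of 6 libraries, without normalization. The submitters' processing notes name fastp, HISAT2, HTSeq, R 3.2.0 and DESeq2, and GRCm38 (mm10) as build. Settings, annotation release, strand and the handling of reads that match several genes are not stated there. The tests ran in edgeR 4.0.16 under R 4.3.3 (filterByExpr, TMM, robust quasi-likelihood F test, Benjamini-Hochberg over all 14663 genes tested). SE is the log2 fold change divided by the square root of F. Exon lengths, matched for 39 of 39 members, are unions over the basic GENCODE vM21 transcripts, and positions come from RefSeq. In GENCODE 9 members share exon bases with another gene, 6 of them at least 10%. Alternatives were RLE and upper-quartile scaling, 2 filters, DESeq2 1.42.0, limma-voom (limma 3.58.1), the replicate number as a block, length and GC corrections (loess, span 0.4), another threshold and leaving out each library.

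The members, gene lists and alternatives were chosen with earlier results of these data known. Every member is accounted for, and of each neighbouring list the 4 genes with the smallest p are named, except 1 that is not reported here. Alternatives for the named genes of these lists and for Pdk1 were added after seeing the data. The genes Thy1, Kcnj8, Csf3r and Retnlg of the marker lists were not analysed here. Replicate numbers are shared by both groups, but no label says that they pair libraries.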

Additional observations from a re-analysis of the deposited data

How the results depend on the processing

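Over 16 alternatives the 35 tested members gave 559 values, of which 513 kept their side of the threshold, 26 lost a call, 20 gained one and 0 reversed a call. Signs that changed between values that both failed the test, 21 in number, are not counted as reversals. Of the 15 called members, 7 kept their call in all 16 alternatives (Lpl, Cpt2, Mlycd, Acot2, Pdk4, Ppard and Ppargc1a). With the length correction 1 member was lower in place of 7, beside 3437 of all genes in place of 3668. With the replicate block and length correction together 1 member was lower. Of all genes, 2025 were then higher in place of 3240 and 2661 lower in place of 3668. Of the neighbouring genes, 16 were then higher and 10 lower in place of 30 and 18. With an unadjusted p under 0.05 and a change above 2-fold, 1 member was higher and 1 lower, 1117 and 1120 of all genes, and 9 and 3 of the neighbouring genes. The cause of these differences was not tested. Leaving out 1 library gave 7 to 11 higher and 5 to 8 lower members. Same-numbered libraries did not deviate together (correlations of deviations from group means -0.0872, -0.202 and -0.0585). Deviations from a mean of 3 libraries depend on each other, so this check cannot exclude a pairing. The replicate block left 8 members higher and 5 lower, with Acads and Eci2 lost, and with the length correction added Acsl4 and Ppargc1b were lost too. Of the named neighbouring genes, Mpc2 (adjusted p = 0.0661), Acacb (0.0739), Plin4 (0.0988) and Ncor1 (0.0998) lost their calls with the block and length correction together, as did Pdhb.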

Other observations

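Decr1 had 1 count among 209568068 counts of the 6 libraries. The protein-coding genes before it on chromosome 4 (GRCm38.p6), Necab1, Tmem64 and Calb1, had 1, 0 and 0 counts under AAV9-hFNDC4 and 1, 2 and 1 under AAV9-CTRL. So the listed genes from the start of Necab1 (14952245) to the end of Decr1 (15945377) had nearly no counts in both groups. Gm11837, which overlaps the start of Necab1, had 6 counts under AAV9-hFNDC4 and 3 under AAV9-CTRL. The counts are per gene, so reads between genes were not seen. The next expressed genes on either side were Pip4p2 at 68.3 ± 12.0 CPM under AAV9-hFNDC4 and 53.5 ± 1.42 CPM under AAV9-CTRL, and Nbn at 48.2 ± 5.34 CPM under AAV9-hFNDC4 and 55.1 ± 7.08 CPM under AAV9-CTRL (SD, n = 3 libraries each). These genes were looked up after the count of Decr1 had been seen.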
